A study of Mus musculus with 8 samples.

Results

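The Skint cluster on mouse chromosome 4 was examined with 248 of the 235402 probes of a copy number array, those placed at chr4:110800000-114600000 on mouse build mm9. The 134 probes from 111.6 to 113.95 Mb, a stretch of 2.35 Mb, formed the cluster. The 78 probes before it formed the centromeric flank and the 36 after it the telomeric flank. The window and the cluster were selected on measured values of these same arrays: the log2 ratio, the signal of each dye and whether the reference signal stood well above background. Those values are therefore given as a description, and no test on them supports anything.

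The series profiled genomic DNA of mice given a bone marrow transplant expressing SEC31A-JAK2, a fusion gene in which SEC31A is joined to the tyrosine kinase JAK2. All 8 DNA samples carried SEC31A-JAK2 on a Balb/c background, and each was labelled with Cy5 and hybridised against Cy3-labelled DNA of a normal wildtype mouse of the same strain. T-lymphoblastic lymphoma (T-LBL) was sampled in 3 primary transplanted mice, in the spleen of M7 and M9 and in a neck lymph node of M12; 1 primary myeloid hyperplasia, M10, came from bone marrow. The 4 secondary T-LBL derived from mouse 12 comprised a neck lymph node (M12.50) and 3 pancreas samples (M12.53, M12.52 and M12.49), so they share an origin with M12 and with each other. The labels give no dye swap, age or tumour cell content, and nothing says whether the reference DNA came from 1 animal or from several. The spread between arrays mixes differences between mice with technical differences, and 8 arrays limit the precision of every group value.

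Skint genes encode membrane proteins related to the butyrophilins, with immunoglobulin-like outer domains. Skint1, the founding member, is expressed in thymic epithelium and skin and is needed for the maturation of the γδ T cells that populate the mouse epidermis. The family lies in one cluster of repeatedly duplicated, closely related copies, and such clusters often differ in gene content between inbred strains. On a comparative hybridisation array a probe whose target is missing or altered in a DNA gives little signal from that DNA. If it is missing from both DNAs, the ratio compares 2 background readings. A gain or loss in the tumour alone changes 1 dye and leaves the reference bright.

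In the RefSeq gene table (assembly GRCm38.p6) the family comprised 11 protein-coding genes in the order Skint8, Skint7, Skint1, Skint4, Skint3, Skint9, Skint2, Skint10, Skint6, Skint5 and Skint11. The nearest other protein-coding genes were Slc5a9 before them, a sugar transporter, and Trabd2b behind, an inhibitor of Wnt signalling. No other protein-coding gene lay between the first and last Skint gene, but 9 pseudogenes did. That table is on another build than the probes and the array files name no genes, so no probe is assigned here to a single Skint gene.

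How alike members of the family can be is seen in the 250 bases before the start sites of Skint6 and Skint5, from RefSeq. Of 65 pairs of upstream sequences from the 11 genes (Skint4 has 2 start sites), compared base by base without gaps, this pair was the most alike. It matched at 222 of 250 bases (88.8%), against a median of 25.2% over all pairs and 31.2% for the next pair. Without gaps, sequence shared at shifted positions is missed, so low values do not show that the other pairs are unlike. Both read 5′ to 3′ on the minus strand of GRCm38.p6, at chr4:113286974-113287223 for Skint6 and chr4:113999504-113999753 for Skint5, with the bases that differ in capitals.

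Skint6: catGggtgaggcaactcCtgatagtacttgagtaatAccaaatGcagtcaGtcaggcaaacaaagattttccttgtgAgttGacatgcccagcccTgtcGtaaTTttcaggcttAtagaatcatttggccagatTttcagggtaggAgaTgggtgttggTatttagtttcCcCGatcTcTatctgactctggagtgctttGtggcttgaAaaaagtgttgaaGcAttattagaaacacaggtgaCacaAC

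Skint5: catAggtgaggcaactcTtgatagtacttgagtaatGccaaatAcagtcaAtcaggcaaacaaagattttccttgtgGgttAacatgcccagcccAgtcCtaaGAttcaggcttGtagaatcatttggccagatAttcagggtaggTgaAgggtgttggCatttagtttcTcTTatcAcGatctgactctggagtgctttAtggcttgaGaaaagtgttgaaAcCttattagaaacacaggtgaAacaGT

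These 2 upstream regions share long stretches without any difference. The probe sequences themselves are not printed, and how many places each probe matches was not tested.

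The cluster was sparsely tiled. It held 57.0 probes per Mb with a median spacing of 13.9 kb, against 97.5 per Mb and 9.19 kb in the centromeric flank and 91.7 per Mb and 7.82 kb over the autosomes. The telomeric flank was about as sparse, at 55.4 probes per Mb. The largest distance between neighbouring probes in the cluster was 60.1 kb.

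Much of the cluster gave little signal in the normal Balb/c reference DNA. Levels here are log2 signals of one dye minus that array's autosomal median for the same dye. The mean reference level over the cluster's probes had a median of −2.73 across the 7 arrays other than M7, with a range from −3.05 to −1.84. The tissue DNA was as dim: its mean level had a median of −2.48, with a range from −2.91 to −1.96. M7 is kept apart because its reference was dim over the whole array, with 55.2% of autosomal probes well above background in the reference against at least 98.7% on each other array.

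The low signal was patchy rather than uniform. By median reference level over the 7 arrays, 47 of the 134 cluster probes (35.1%) lay under −4, 36 between −4 and −2, 12 between −2 and −1 and 39 (29.1%) above −1. The tissue DNA split the same probes almost alike, with 42, 39, 16 and 37. Of the 114 flank probes none lay under −4 in the reference, 2 lay between −4 and −2, 15 between −2 and −1 and 97 (85.1%) above −1. Over the autosomes 0.211% of probes lay under −4.

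A probe was called dim where the authors' software did not count its signal as well above background, and reference-dim where this held for the reference on at least 4 of the 7 arrays. By that rule 54 of the 134 cluster probes (40.3%) and 0 of the 114 flank probes were reference-dim, against a background of 0.275% over the autosomes (608 of 221455 probes). The cluster holds 0.0605% of the autosomal probes and 8.88% of the reference-dim ones. The rule on the cluster used these values, so nothing is read from the contrast. On all 7 arrays 33 of the 54 were dim, 24 further cluster probes were dim on 1 to 3 arrays, and 56 were never dim. Over the 221455 autosomal probes these counts were 277, 3809 and 217038. In the tissue DNA 50 cluster probes were dim on at least 4 of the 7 arrays, against 826 autosomal probes. All 50 were among the 54, and 521 autosomal probes were dim by the rule in both dyes.

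Signal dropped in both DNAs across both limits of the cluster. The 5 probes just outside the start of the cluster had a median reference level of −0.13 and those just inside of −1.14, with 0 and 1 reference-dim probes. At the end of the cluster the 5 probes outside stood at 0.02 and the 5 inside at −2.61, with 0 and 2 reference-dim probes. At the outer limits of the window the 5 probes inside and outside were at 0.44 and −0.09 at its start and at −0.51 and −0.0024 at its end, and none was reference-dim.

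**Figure D1:**
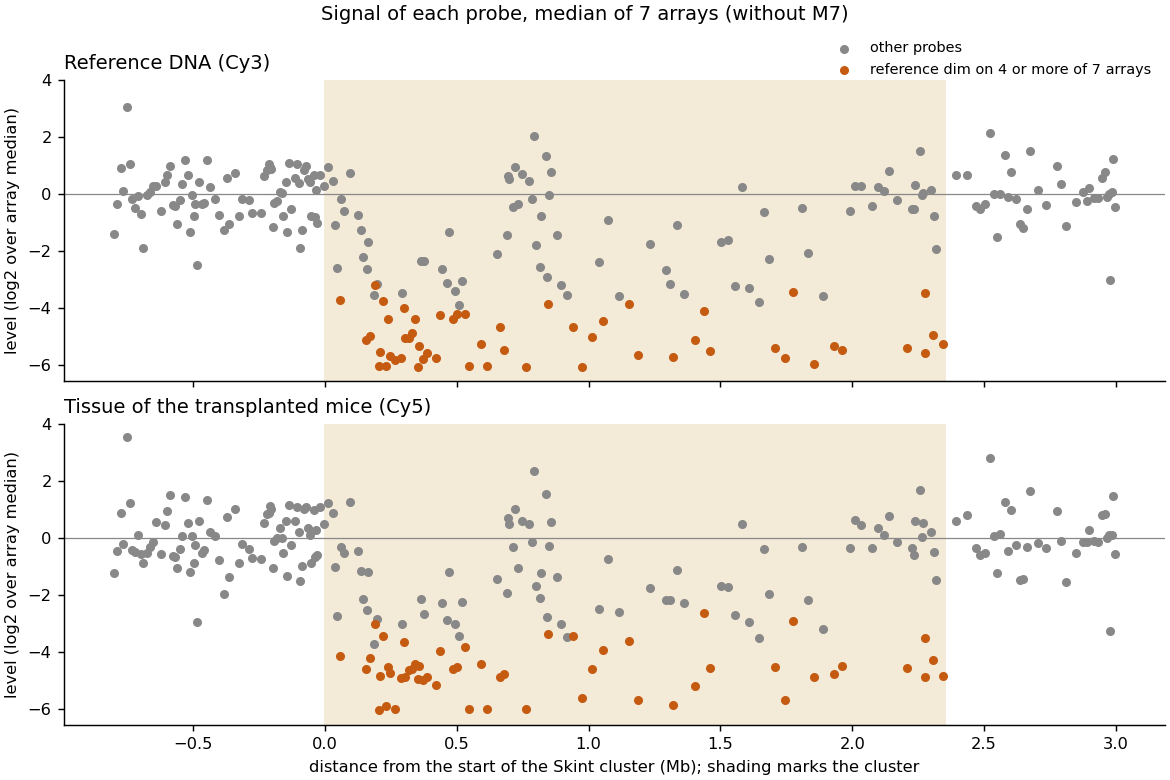
Level of each of the 248 probes (log2 of the signal over the array's autosomal median, median of the 7 arrays other than M7) in the reference and in the tissue DNA, against distance from the start of the cluster in Mb; shading marks the cluster and orange the 54 reference-dim probes. Both dyes drop together inside the cluster, to under −4 for 47 probes in the reference and 42 in the tissue, and return to the flank level in the same places.

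Near its start the cluster was dark over a stretch of 200 kb. At chr4:111800001-112000000, 17 of 20 probes were reference-dim, and the mean level in its consecutive parts of 100 kb was −5.06 and −4.58 in the reference and −4.60 and −4.40 in the tissue. At chr4:112300001-112400000 the reference level was −0.33 and the tissue level at −0.33, with 1 of 8 probes dim. At chr4:113000001-113100000 it was again −5.04 and −3.99, with 3 of 3 probes dim. At chr4:113600001-113700000 it was 0.12 and 0.29, with 0 of 4 dim. Bright and dark stretches alternated within the cluster, at the same places in both DNAs.

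Runs of at least 3 neighbouring reference-dim probes show where the signal was low. The window held 7 such runs with 31 of the 54 reference-dim probes, and all of them lay in the cluster. The longest by probe number spanned chr4:111804393-111887117 with 8 probes, followed by chr4:111899509-111958521 with 7 probes. A single probe between these neighbours did not meet the rule. The other 5 runs were chr4:111987846-112037477 with 3 probes, chr4:112130091-112213221 with 4, chr4:112539355-112613483 with 3, chr4:113001582-113059938 with 3 and chr4:113309482-113375469 with 3.

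In the longest run the mean reference level was −5.66 on M10, −5.76 on M12, −5.58 on M12.50, −4.38 on M12.53, −4.50 on M9, −5.64 on M12.49 and −5.38 on M12.52. The mean tissue level of the same 8 probes was −5.69, −5.57, −5.56, −4.83, −3.57, −4.80 and −4.23 on those arrays in turn. On each of these arrays 7 or 8 of the 8 probes were dim in the reference and 7 or 8 in the tissue. Neither DNA came near the array's median on any of these arrays. In the run of 7 probes beside it the reference level ranged from −5.74 on M12.49 to −3.00 on M12.53, and the tissue level from −5.35 on M12 to −3.24 on M12.53.

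In contrast 43 of the 134 cluster probes were well above background in both dyes on all 7 arrays, against 205672 of 221455 autosomal probes. Of the 43, 25 stood in 4 runs of at least 5 neighbours. These runs were singled out after their values were seen. They lay at chr4:111661092-111736966 (5 probes), chr4:112294409-112349048 (6 probes), chr4:113590673-113769095 (8 probes) and chr4:113825863-113868281 (6 probes). The reference level of the run of 8 lay between 0.03 on M12.50 and 0.18 on M12.53 over the 7 arrays, and its tissue level between 0.05 on M12 and 0.25 on M12.50. The other bright runs spread further: the run of 5 lay below the autosomal median on all 7 arrays in the reference, from −0.48 to −0.20, and between −0.55 and 0.02 in the tissue. The run at chr4:112294409-112349048 lay between 0.15 and 0.41 in the reference and between 0.07 and 0.44 in the tissue, and the run at chr4:113825863-113868281 between 0.02 and 0.35 and between 0.24 and 0.41.

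Each cluster probe was sorted by whether it was bright, that is well above background, in both dyes, in 1 dye or in neither. This state depends on the background of each dye on that array, so it does not by itself show where the 2 DNAs differ. On M12, 84 cluster probes were bright in both dyes, 46 in neither, 2 in the tissue only and 2 in the reference only. On M10 the same numbers were 90, 39, 3 and 2, and on M12.50 they were 94, 38, 2 and 0. On these 3 arrays at most 5 of the 134 probes were bright in a single dye. M12.53 had 88 bright in both, 31 in neither, 15 in the tissue only and 0 in the reference only. M9, M12.49 and M12.52 leaned the opposite way. M9 had 46 in both, 70 in neither, 0 in the tissue only and 18 in the reference only. M12.49 had 55, 65, 1 and 13, and M12.52 had 48, 71, 0 and 15. M7, like M12.53, had more in the tissue only, with 27, 67, 38 and 0 of 132 measured probes. Over the autosomes 84833 of 213166 probes on M7 and 2178 of 221247 on M12.53 were bright in the tissue only. Bright in the reference only were 12559 of 221382 autosomal probes on M9, 1850 of 221180 on M12.49 and 5375 of 221093 on M12.52. On M10, M12 and M12.50 each single-dye state held at most 126 autosomal probes. Single-dye states were thus not confined to the cluster.

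The 3 arrays with 13 or more probes bright only in the reference shared a scan day. M9, M12.49 and M12.52 were scanned on the third of 4 scan days, M10, M12.50 and M12.53 on the second, M12 on the first and M7 on the fourth. The third day holds 1 primary and 2 secondary T-LBL, so scan day and group overlap only in part. Over all autosomal probes the tissue was dim at 6.58% on M9, 2.91% on M12.52 and 1.16% on M12.49, against 0.201% to 0.33% on the other 4 arrays besides M7. The part of scan day in the cluster's states was not tested.

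**Figure D2:**
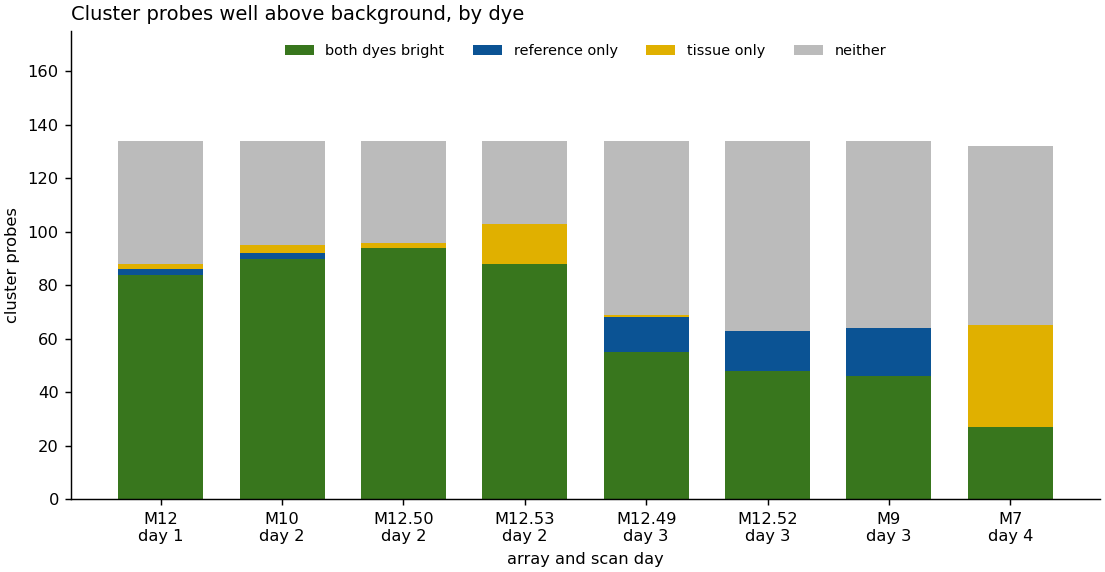
Number of cluster probes by array, ordered by scan day, that were well above background in both dyes, in the reference only, in the tissue only or in neither (132 probes measured on M7 and 134 on the others). Probes bright only in the reference number 13 to 18 on the 3 arrays of scan day 3 and at most 2 elsewhere, while probes bright only in the tissue number 15 on M12.53 and 38 on M7 and at most 3 elsewhere.

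Within each array the 2 dyes ranked the cluster's probes alike. Across the 134 probes, which share an array and are not replicates, Pearson's r between reference and tissue level was 0.99 on M12, M10 and M12.50, 0.98 on M12.53, 0.97 on M12.49 and M12.52, 0.96 on M9 and 0.90 on M7 (132 probes). Spearman's rho on M12 was 0.99 and on M7 0.83.

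The darkest probes lay in narrow bands, called the floor here, whose level differed between dyes and arrays. Floor probes were picked as not significantly above background, so their low levels follow from that choice. How the software sets the signal of such spots was not examined. On M12.52 the tissue signal of 44 cluster probes was not significantly above background by the authors' software, and their levels had a mean of −4.47 with an SD of 0.11. The 30 probes not significant in the reference of the same array lay lower, at −5.70 (SD 0.14). On M9 the floor was −3.89 in the tissue (42 probes) against −5.39 in the reference (24 probes), and on M12.49 it was −4.89 (33 probes) against −5.98 (30 probes). On M10, M12 and M12.50 the floors of tissue and reference differed by less, at −6.22 and −6.16, −6.55 and −6.64, and −6.50 and −6.26. On M12.53 the order was turned, with −5.99 in the tissue (9 probes) and −5.12 in the reference (11 probes). On M7 the reference floor was −2.52 (67 probes) and the tissue floor −4.60 (30 probes).

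**Figure D3:**
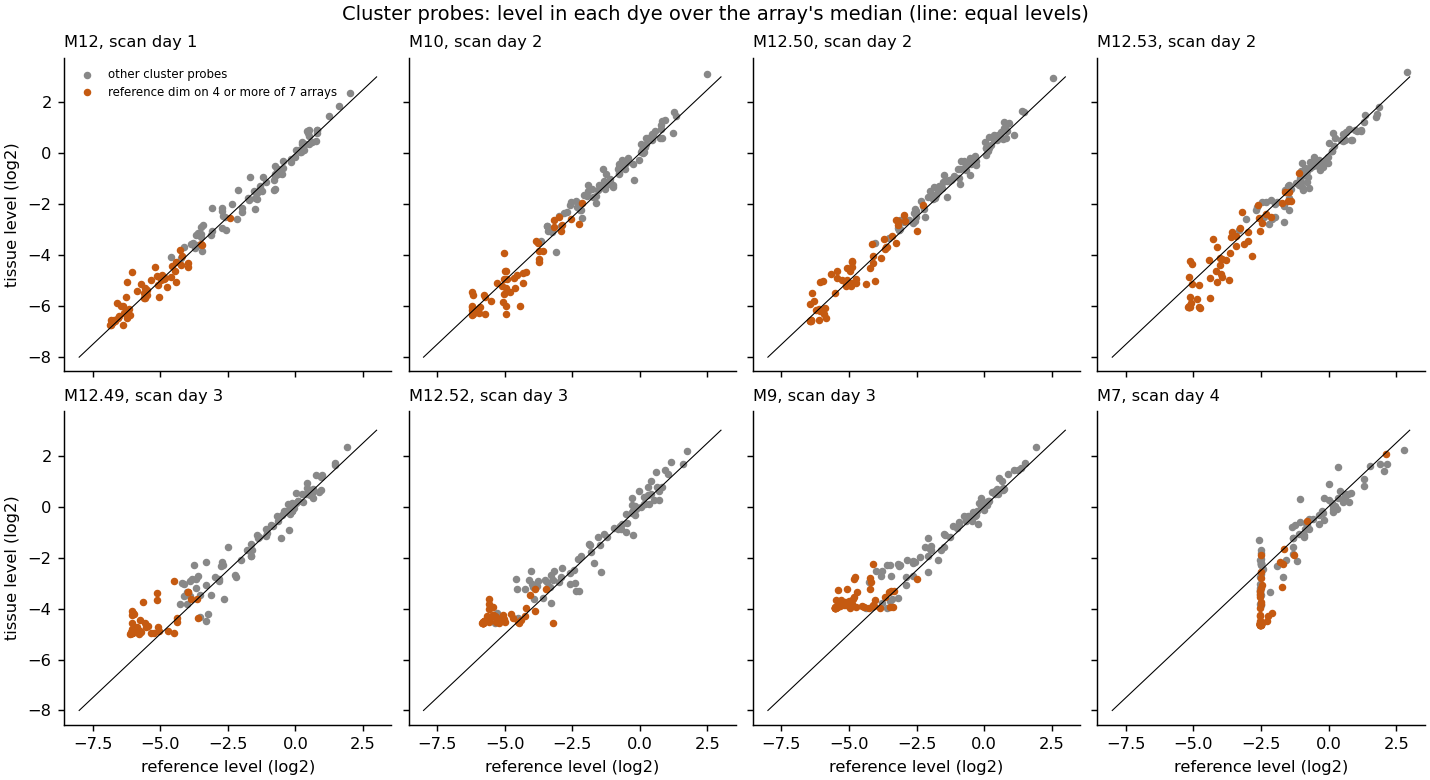
Tissue level against reference level (log2 over the array's median) of the cluster's probes on each array, ordered by scan day; the line marks equal levels and orange the reference-dim probes. Probes follow the line down to the floor of a dye, which for the tissue is −4.47 on M12.52 and −3.89 on M9, and for the reference is −2.52 on M7.

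The log2 ratio of tissue to reference, centred on each array's autosomal median, differed widely between arrays in the cluster. Its mean over the cluster's probes was −0.76 ± 0.09 (SE over probes) on M7, 0.60 ± 0.06 on M9 and 0.06 ± 0.03 on M12. The secondary tumours stood at 0.47 ± 0.06 on M12.52, 0.46 ± 0.06 on M12.49, 0.14 ± 0.03 on M12.50 and −0.10 ± 0.04 on M12.53. The myeloid array M10 stood at 0.03 ± 0.04. The centromeric flank ranged only from −0.04 on M7 to 0.10 on M9 and the telomeric flank from −0.14 on M12.50 to 0.04 on M12.53. These offsets depend on how the signals are processed. In the authors' deposited ratios, which are listed at 0 for 56 cluster probes on M7, 36 on M9, 40 on M12.52 and 31 on M12.49, the cluster means were −0.098, 0.28, 0.15 and 0.23 on those arrays. With normexp background correction they were −0.19, −0.045, −0.0044 and 0.029, so that the offset above 0 on scan day 3 was not seen, while M12, M12.50 and M12.53 stood at −0.25, −0.30 and −0.42. Normexp here adds a constant of 50 to both dyes, which by itself draws the ratios of dim probes toward a fixed value. The loss of the offset is therefore no independent check. With the signals as deposited, the arrays of scan day 3 averaged 0.51 ± 0.08 (SD, n = 3) in the cluster and those of scan day 2 averaged 0.02 ± 0.12 (SD, n = 3).

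**Figure D4:**
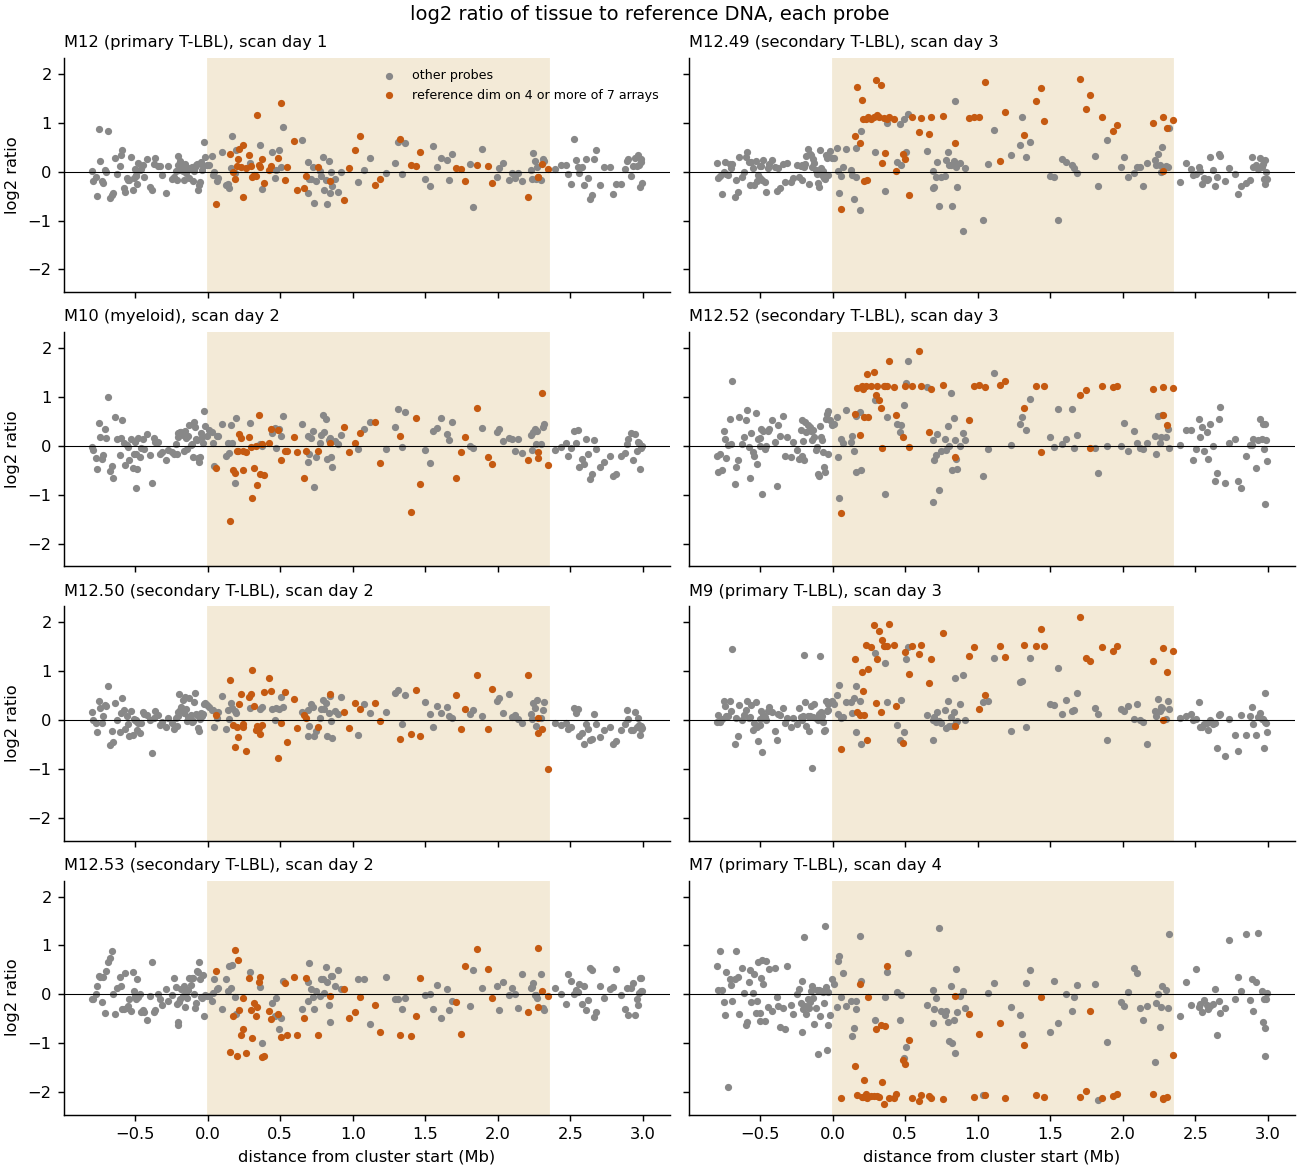
log2 ratio of tissue to reference for each of the 248 probes on each array, ordered by scan day down the columns, against distance from the start of the cluster in Mb; shading marks the cluster and orange the reference-dim probes. The orange probes average above 0 on M9, M12.49 and M12.52, and below 0 on M7 and, by less, on M12.53 (−0.26). On these arrays the other probes of the cluster average nearer to 0. On M10, M12 and M12.50 the orange probes average between −0.14 and 0.10.

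The reference-dim probes carried these offsets. The mean log2 ratio of the 54 was −1.59 ± 0.11 (SE over probes) on M7, 1.08 ± 0.09 on M9, 0.92 ± 0.08 on M12.49 and 0.92 ± 0.08 on M12.52. It was −0.14 ± 0.07 on M10, 0.09 ± 0.05 on M12, 0.10 ± 0.06 on M12.50 and −0.26 ± 0.08 on M12.53. On scan day 3 the values lay from 0.92 to 1.08. M9 is a primary tumour from spleen, and M12.49 and M12.52 are secondary tumours from pancreas. What sets these values was not tested.

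Where neither dye was significantly above background, the ratio was close to a constant of the array. Such probes were picked as lying at both floors, so their ratios restate the floors and are not a separate result. On M12.52 the 27 such probes among the 54 had a mean log2 ratio of 1.21 with an SD of 0.03, on M12.49 the 21 had 1.097 (SD 0.03) and on M9 the 20 had 1.47 (SD 0.09). On M7 the 29 had −2.10 (SD 0.04) and on M12.53 the 7 had −0.83 (SD 0.01). On M10 9 probes had −0.12, on M12 11 had 0.09 and on M12.50 6 had −0.15. The 40 of the 54 that were significant in both dyes on M12 averaged 0.11 ± 0.07 (SE), the 40 on M12.50 averaged 0.13 ± 0.07, the 40 on M12.53 averaged −0.15 ± 0.09 and the 36 on M10 averaged −0.16 ± 0.08. On the arrays of scan day 3 only 10 to 14 of the 54 were significant in both dyes, with means of 0.98 ± 0.22 on M9, 0.52 ± 0.22 on M12.49 and 0.72 ± 0.21 on M12.52.

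Dim probes elsewhere and control spots showed offsets on the same arrays. The 554 reference-dim autosomal probes outside the window averaged 1.07 on M9, 0.54 on M12.49, 0.61 on M12.52, −1.13 on M7 and −0.24 on M12.53, and from −0.05 to 0.18 on M10, M12 and M12.50. The array's negative control spots, designed to match no mouse sequence, stood at 1.46 on M9, 1.07 on M12.49, 1.19 on M12.52, −2.05 on M7 and −0.78 on M12.53, and from −0.10 to 0.12 on the other arrays. On M7, M9, M12.49, M12.52 and M12.53 all 3 sets had the same sign.

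The dim probes were not all at the level of the control spots. On M10, M12, M12.50 and M12.53 the mean level of the 54 exceeded the mean of the negative controls by 0.92 to 1.25 in the reference and by 0.88 to 1.74 in the tissue. On M9, M12.49 and M12.52 the excess of the mean was 0.32 to 0.51 in the reference and 0.047 to 0.22 in the tissue, and on M7 it was 0.19 and 0.64. By medians, which a few brighter probes move less, the tissue excess was 0.0084 to 0.06 on M9, M12.49 and M12.52 and 0.033 on M7.

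**Figure D5:**
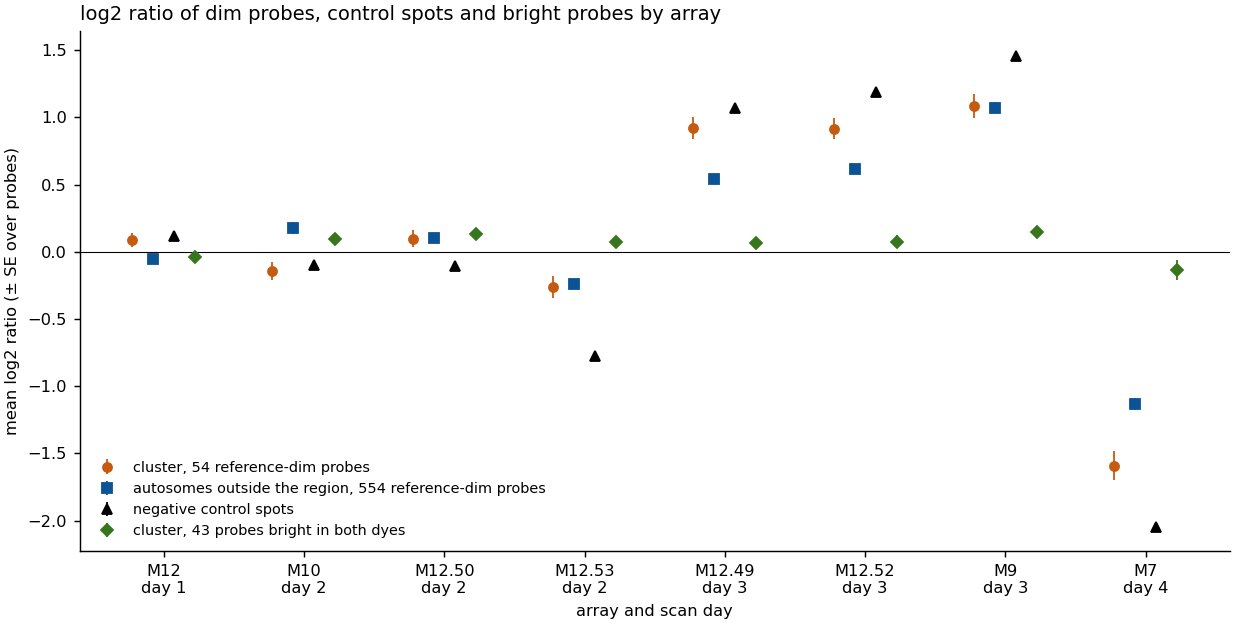
Mean log2 ratio by array, ordered by scan day, of the 54 reference-dim cluster probes, the 554 reference-dim autosomal probes outside the window, the negative control spots and the 43 cluster probes bright in both dyes on all 7 arrays; bars are SE over probes. The first 3 sets lie above 0 on M9, M12.49 and M12.52 and below 0 on M7 and M12.53, whereas the bright cluster probes stay between −0.13 and 0.15.

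The bright probes of the cluster stayed nearer to 0 on every array with an offset in the dim probes. The mean log2 ratio of the 43 probes bright in both dyes was −0.13 ± 0.07 (SE over probes) on M7, 0.15 ± 0.03 on M9, −0.04 ± 0.04 on M12 and 0.09 ± 0.04 on M10. In the secondary tumours it was 0.13 ± 0.03 on M12.50, 0.07 ± 0.04 on M12.49, 0.08 ± 0.04 on M12.53 and 0.07 ± 0.05 on M12.52. By group this is −0.01 ± 0.14 (SD, n = 3) in primary and 0.09 ± 0.03 (SD, n = 4) in secondary T-LBL. The 107 flank probes bright in the same way lay between −0.04 on M7 and 0.07 on M12.52. Over the 7 arrays the 4 bright runs ranged from −0.19 to 0.25, and the one at chr4:113825863-113868281 was above 0 on all 7, from 0.07 on M12.53 to 0.25 on M12.52, but at −0.38 on M7.

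The middle class had a median reference level between −4 and −2. On M7, M9, M12.49, M12.52 and M12.53 it averaged between the reference-dim probes and the bright probes of the cluster. On M10 and M12.50 the middle class averaged above both sets, and on M12 it was close to the reference-dim probes. Its 36 probes averaged 0.45 ± 0.10 (SE) on M9, 0.25 ± 0.12 on M12.49 and 0.32 ± 0.12 on M12.52. On M10 they averaged 0.21 ± 0.06, on M12 0.09 ± 0.07, on M12.50 0.19 ± 0.04, on M12.53 0.01 ± 0.08 and on M7 −0.43 ± 0.14. The 12 probes between −2 and −1 lay from −0.07 on M12 to 0.16 on M12.50.

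By group the cluster as a whole averaged a log2 ratio of −0.04 ± 0.69 (SD, n = 3) in primary T-LBL and 0.24 ± 0.27 (SD, n = 4) in secondary T-LBL, and the groups overlapped. The difference of 0.28 became −0.08 without M7. With all arrays kept it was −0.011 with normexp signals, 0.044 with the authors' deposited ratios, 0.036 over probes bright in the reference and 0.077 over probes bright in both dyes. Within scan day 3, the only day that holds both groups, M12.49 and M12.52 stood −0.13 from M9, and within the slide that holds M9 and M12.50 the difference was −0.46.

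No window of 10 consecutive probes in the cluster reached a group mean log2 ratio of 0.5 in either direction. Of the 12 windows inside the cluster 0 were at or above 0.5 in primary T-LBL, against 0.00904% of the 22135 autosomal windows, and 0 at or below −0.5, against 0.0542%. In secondary T-LBL the counts were 0 and 0, against 0.00904% and 0.14%, and in the single myeloid array they were 0 and 0, against 0.0136% and 0%. The group means hide single arrays: in the window chr4:111809439-111905016 M7 stood at −1.56, M9 at 0.93, M12.49 at 0.86 and M12 at 0.14.

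Secondary and primary T-LBL were compared over all 22135 windows with limma, with all 8 arrays in the fit. At an adjusted p under 0.05 (Benjamini-Hochberg) 0% of all windows were called, so that 0 of the 12 cluster windows were called against that background, and 331 windows of the whole set and 1 of the cluster had an unadjusted p under 0.05. That window, chr4:113769036-113876190, was 0.47 higher in secondary T-LBL, with group means of 0.28 and −0.19 and a limma adjusted p of 0.996. The difference in the cluster windows ranged up to 0.63 ± 0.46 (SE), at chr4:111809439-111905016. The secondary tumours share an origin with each other and with M12, which is in the primary group, so the arrays are not independent. Relatedness within the secondary group makes p-values too small, and relatedness to M12 acts the opposite way. The net effect was not tested, so these p-values are not reliable.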

How the data were processed

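The 8 two-colour 244K arrays were read from the scanner files. The deposited processed signal intensities of both dyes had been background-subtracted and dye-normalised by Feature Extraction (version 10.5.1.1 per the file headers, 9.1.1 per the submitters' processing notes). The authors' deposited series table holds log10 ratios that equal those of the same signals (within 0.001 on the log2 scale) for at least 96.2% of probes per array, apart from 81 to 9970 probes per array that it lists at 0. The deposited flags for signals well above, or significantly above, background were used as given, per the file headers. Control spots and outlier spots were left out, spots of a probe were averaged, and log2 ratios were computed from the deposited intensities and centred on each array's autosomal median. The file of M12 is on mm8, so M12 took mm9 positions by probe name. The negative controls' ratio was centred in the same way.

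The members, limits and lists were chosen with earlier results of these data known. Every reference-dim run of 3 or more probes could be named, as could any window and the Skint genes with their neighbours. Means over windows of 10 probes were fitted in limma with 3 groups over 8 arrays. The single myeloid array was assumed to vary like the others. The fit was also run on simulated independent noise with implanted changes. That simulation had no shared origin, scan day or floor, so it does not cover those features of these arrays. Alternatives covered normexp, the deposited table, centring, filters, floors, batches and leaving out arrays. The planned normexp, with a constant of 50 added to both dyes, used median foreground signals because the files used here give no mean signal. Cluster means over 1 array carry SE over probes, which are not replicates. Fits used limma 3.58.1 in R 4.3.3, and the other steps used pandas 2.3.3, numpy 2.4.6 and matplotlib 3.10.9 in Python 3.11.15.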

Additional observations from a re-analysis of the deposited data

Results flagged for a closer look

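Among 57 values compared over the 4 secondary T-LBL, 8 had an array whose gap to the nearest other exceeded Dixon's 95% critical value, which chance does in about 1 in 20 groups. The tissue level of the run at chr4:111899509-111958521 was −3.24 on M12.53 and at most −4.42 on the others, and the reference level of the run at chr4:112130091-112213221 was −4.26 on M12.53 and at most −5.40 on the others. Among the bright runs, the tissue level at chr4:112294409-112349048 was 0.33 on M12.50 against 0.25 on each other array, and that at chr4:113825863-113868281 was 0.39 on M12.53 against 0.29 to 0.30. The 43 bright probes had a mean log2 ratio of 0.13 on M12.50 against 0.066 to 0.075 on the others. In the centromeric flank 1.28% of probes were reference-dim on M12.53 and 1.30% tissue-dim on M12.52, and in the telomeric flank 2.78% were reference-dim on M12.53, with 0% on the other secondary arrays; each of these shares is 1 probe.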

How the results depend on the processing

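Of 81 recomputed values for 7 results, 70 stayed close to the main value and 11 moved further, and the cause was not tested. For the T-LBL ratios, their difference and the dim share, close meant within the SD between arrays, which is wide (0.69 in primary T-LBL). For the myeloid array it meant within the SE over probes. The number of dim runs had to stay within a fixed fold, and the count of limma windows had to be equal. With normexp the cluster's log2 ratio became −0.17 in secondary T-LBL and −0.086 in the myeloid array. Restricting the myeloid array to probes bright in the reference gave 0.12, and to probes bright in both dyes, a choice made after seeing the data, 0.13. Within slide 2 the difference between secondary and primary T-LBL was −0.46. The share of cluster probes dim in the reference (median of 7 arrays, 35.8%) was 10.4% when dim meant not significantly above background and 59.7% when it meant a log2 level under −2. The 7 dim runs became 0 under the former rule, 3 when dim on all 7 arrays and 2 with at least 5 probes. Without scan day 3 there were 3 runs (dim on at least 3 of 4 arrays, added after seeing the data). By that last rule 39 of the 134 cluster probes (29.1%) were dim, against 450 of 221455 autosomal probes (0.203%). Leaving out 1 array moved primary T-LBL between −0.35 (without M9) and 0.33 (without M7), secondary T-LBL between 0.17 and 0.36, their difference between −0.08 and 0.60, and the dim share between 35.1% and 42.5%.

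The limma comparison called 0 cluster windows in all 16 fits, with a smallest adjusted p of 0.438 to 1. Unadjusted limma p-values under 0.05 varied more. They were found in 10 of 12 cluster windows with array weights and 10 without M9, against 1712 and 2285 of 22135 windows. With scan day or slide as a block there were 4, against 1630 and 59, and at most 2 in the other fits. The region was chosen on these values, so nothing is read from these counts. Over all windows it called 30 with scan day as a block, 13 with slide as a block and 23 without M12, and 0 otherwise. No paired analysis by mouse was possible, because all secondary tumours derive from mouse 12 and M7 and M9 have no secondary tumour here. The signal over background limits the ratio at the dim probes: a copy number change confined to probes at the floor was not detectable here. The number of arrays, M7's dim reference and the missing dye swap limit the rest.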
